A study of Sciaenops ocellatus with 36 samples.

Results

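Genes of the complement cascade, of blood clotting and of other proteins that the vertebrate liver secretes into plasma were followed in whole red drum (Sciaenops ocellatus), a marine fish of the Gulf of Mexico. The 44 genes were chosen by name, as the rows of the count tables whose human gene symbol equals a listed one, out of 56338 symbols. The list was chosen with earlier results of these data known, so the shares called among its members are no independent test. Of these, 14 belong to complement, 11 to coagulation and fibrinolysis and 11 to the plasma inhibitors, and 8 are carriers, iron proteins and other plasma proteins.

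The study asked how oil of the Deepwater Horizon spill changes transcription in embryos and larvae at 24, 48 and 72 hours post fertilization (hpf). Each library was made from a pool of 30 whole embryos or larvae, without liver dissection. Source oil is an unweathered oil that stands in for the oil of the well, given at 0.27%, and slick oil is naturally weathered oil collected from a slick, given at 2.50%. The labels do not say what these percentages refer to, and the oils were not given at a matched level. The 29 libraries used fall into source oil at 24 and 72 hpf, slick oil at 24, 48 and 72 hpf, and unexposed controls in clean water. Controls of the source series exist at 24, 48 and 72 hpf and controls of the slick series at 24 and 48 hpf, with 3 libraries in each group, or 2 for the 24 hpf controls of the slick series. No strain, sex or genotype is given, and all embryos, controls included, came from hatchery brood stock and had a formalin bath before exposure. Neither 48 hpf source oil nor 72 hpf controls of the slick series were analysed here, so slick oil at 72 hpf could only be set against controls of the source series. The labels do not say whether pools differ in spawn or tank, and p-values therefore measure the spread between these pools, which may be technical.

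Complement is a chain of plasma proteases that ends in cleavage of C3 and in a pore, the membrane attack complex, in the target membrane. Clotting is another protease chain, in which thrombin (from F2) turns fibrinogen into fibrin and plasmin (from PLG) dissolves it again, held in check by inhibitors such as antithrombin (SERPINC1). In fish, as in mammals, hepatocytes make most of these proteins, and in mammals inflammatory signals raise some of them (C3, CFB, fibrinogen, ceruloplasmin) and lower others. Fish embryos also make several of them before the liver forms, in the yolk syncytial layer in zebrafish.

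The 6 libraries of the 24 hpf source-oil table held 4770544 to 5878886 counts each, and the other 23 libraries held 2532402 to 3280328. In that table the counts are spread over the human symbols differently, so its levels are set against no other table. Transferrin (TF), the iron carrier, shows this: it had 554 to 1379 CPM (counts scaled to a common library size after TMM normalization) in the 24 hpf source-oil table and is listed at 0 in the other 5. C5, which starts the pore, and C1S, a protease of the classical pathway, are also listed at 0 in those 5 tables. AHSG (fetuin-A) and KNG1 (kininogen) are listed at 0 only in the 24 hpf source-oil table. C4BPA, F13B, HAMP (hepcidin), ITIH3, SERPINA1 and TTR (transthyretin) are at 0 in every library used. A 0 here says only that no fish reads were assigned to that human symbol. In whole animals, fewer cells of a type and less RNA per cell cannot be told apart, which holds for every difference below.

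**Figure D1:**
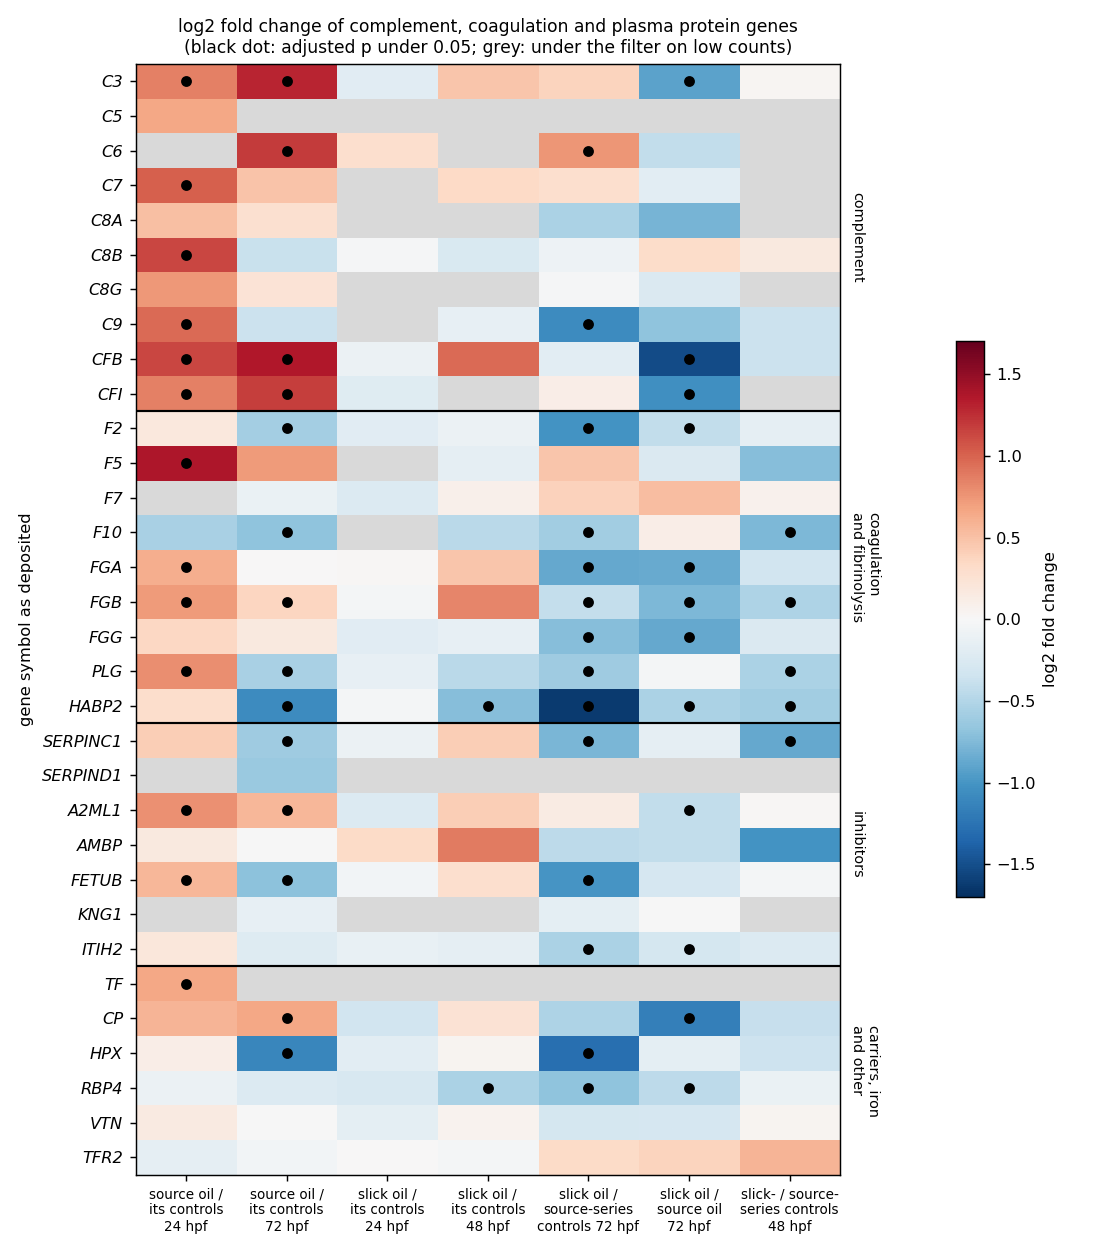
Log2 fold changes of the members that passed the filter on low counts in at least 1 of 7 comparisons (columns), grouped by role (rows), with red for higher and blue for lower in the group named before the slash. Black dots mark an edgeR adjusted p under 0.05 and grey cells mark members under the filter. In source oil at 24 hpf all 13 dots lie on higher values, and in slick oil at 72 hpf 13 of 14 lie on lower values.

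At 24 hpf 13 members were higher in source oil than in controls and none was lower, with genes of complement and of the fibrin clot among them. Of the 44 members, 8 were at 0, 8 were under the filter on low counts and 28 were tested. A call here and below is an adjusted p under 0.05 in edgeR's quasi-likelihood test. Over all 9790 genes tested in this comparison, 5.42% were called, 3.98% higher and 1.44% lower, against 46.4% of the members tested. The median log2 fold change was 0.60 over the members and -0.01 over all genes tested. By role, 6 of 9 complement genes rose, 4 of 8 coagulation genes, 2 of 5 inhibitors and 1 of 6 carriers and iron proteins. Of these, C9 and F5 would not have passed the filter on their control libraries alone.

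CFB, the protease that builds the C3-cleaving enzyme of the alternative pathway, had 29.6, 40.4 and 35.8 CPM in source-oil embryos at 24 hpf, against 11.5, 15.7 and 21.1 CPM in controls. All 3 oil libraries lay above all 3 controls, at 1.14 ± 0.17 on the log2 scale (SE; edgeR adjusted p = 7.51e-05). C3, the protein on which the complement pathways meet, had 293, 428 and 370 CPM in source oil, against 147, 206 and 253 CPM in controls (log2 fold change 0.85 ± 0.14, SE; edgeR adjusted p = 0.000287). Its groups also did not overlap. CFI, the protease that inactivates C3b and so limits the cascade, rose as well, with a fold change on the log2 scale of 0.85 ± 0.23 (SE; edgeR adjusted p = 0.032) and overlapping groups.

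Parts of the membrane attack complex rose from low levels. C7 had 5.38, 6.12 and 5.71 CPM in source oil, against 2.31, 2.52 and 3.72 CPM in controls (log2 fold change 1.02 ± 0.26, SE; edgeR adjusted p = 0.0194). C9, the subunit that forms the ring of the pore, had 4.13, 4.21 and 5.49 CPM in source oil and 2.64, 1.80 and 2.54 CPM in controls (edgeR adjusted p = 0.0468). C8B rose by a log2 fold change of 1.14, while C5, C8A and C8G had values of 0.65, 0.52 and 0.73 that did not pass the test. C7, C8B and C9 rested on 10 to 42 counts per library.

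Fibrinogen, the clot protein, has 3 chains. Its beta chain FGB had 549, 734 and 715 CPM in source oil, against 344, 401 and 469 CPM in controls, and the groups did not overlap (log2 fold change 0.72 ± 0.11, SE; edgeR adjusted p = 8.94e-05). The alpha chain FGA rose by 0.62 ± 0.14 on the log2 scale (SE; edgeR adjusted p = 0.00993). The gamma chain FGG, at 126, 211 and 184 CPM in source oil and 114, 129 and 165 CPM in controls, did not pass the test (edgeR adjusted p = 0.179). PLG had 66.6, 125 and 102 CPM in source oil, against 38.7, 56.8 and 74.4 CPM in controls (log2 fold change 0.80 ± 0.18, SE; edgeR adjusted p = 0.00981). Its lowest oil library lay within the range of the controls. F5, the cofactor that speeds thrombin formation, had 3.05, 4.21 and 3.08 CPM in source oil, against 1.65, 1.08 and 1.17 CPM in controls, a log2 fold change of 1.38 that rests on 6 to 10 counts per control library (edgeR adjusted p = 0.0142). F5 passed the filter on low counts only through source oil, so it could hardly have been called lower. Prothrombin itself (F2) had 129, 173 and 156 CPM in source oil and 114, 143 and 148 CPM in controls, overlapping values without a call. F10, which makes thrombin, had 3.41, 3.25 and 4.39 CPM in source oil and 5.44, 5.95 and 4.70 CPM in controls and also missed the threshold (edgeR adjusted p = 0.255).

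Among the inhibitors, A2ML1, a broad protease trap of the alpha-2-macroglobulin family, had 280, 398 and 363 CPM in source oil, against 162, 195 and 250 CPM in controls (log2 fold change 0.78 ± 0.12, SE; edgeR adjusted p = 0.000227). FETUB, an inhibitor of astacin-type proteases, had 551, 689 and 714 CPM in source oil, against 389, 428 and 504 CPM in controls (log2 fold change 0.57 ± 0.10, SE; edgeR adjusted p = 0.000568). For both genes every oil library lay above every control. SERPINC1 at 3.05 to 6.81 CPM in source oil and 2.97 to 4.11 CPM in controls, and AMBP at 11.9 to 18.0 CPM and 11 to 14.4 CPM in the same groups, did not pass the test. TF rose to 857, 1379 and 1316 CPM in source oil, against 554, 731 and 975 CPM in controls (log2 fold change 0.65 ± 0.15, SE; edgeR adjusted p = 0.0121). The copper oxidase ceruloplasmin (CP), at 145, 271 and 251 CPM in source oil and 104, 139 and 206 CPM in controls, missed the threshold (edgeR adjusted p = 0.0889), and HPX and RBP4, carriers of heme and retinol, were also not called.

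**Figure D2:**
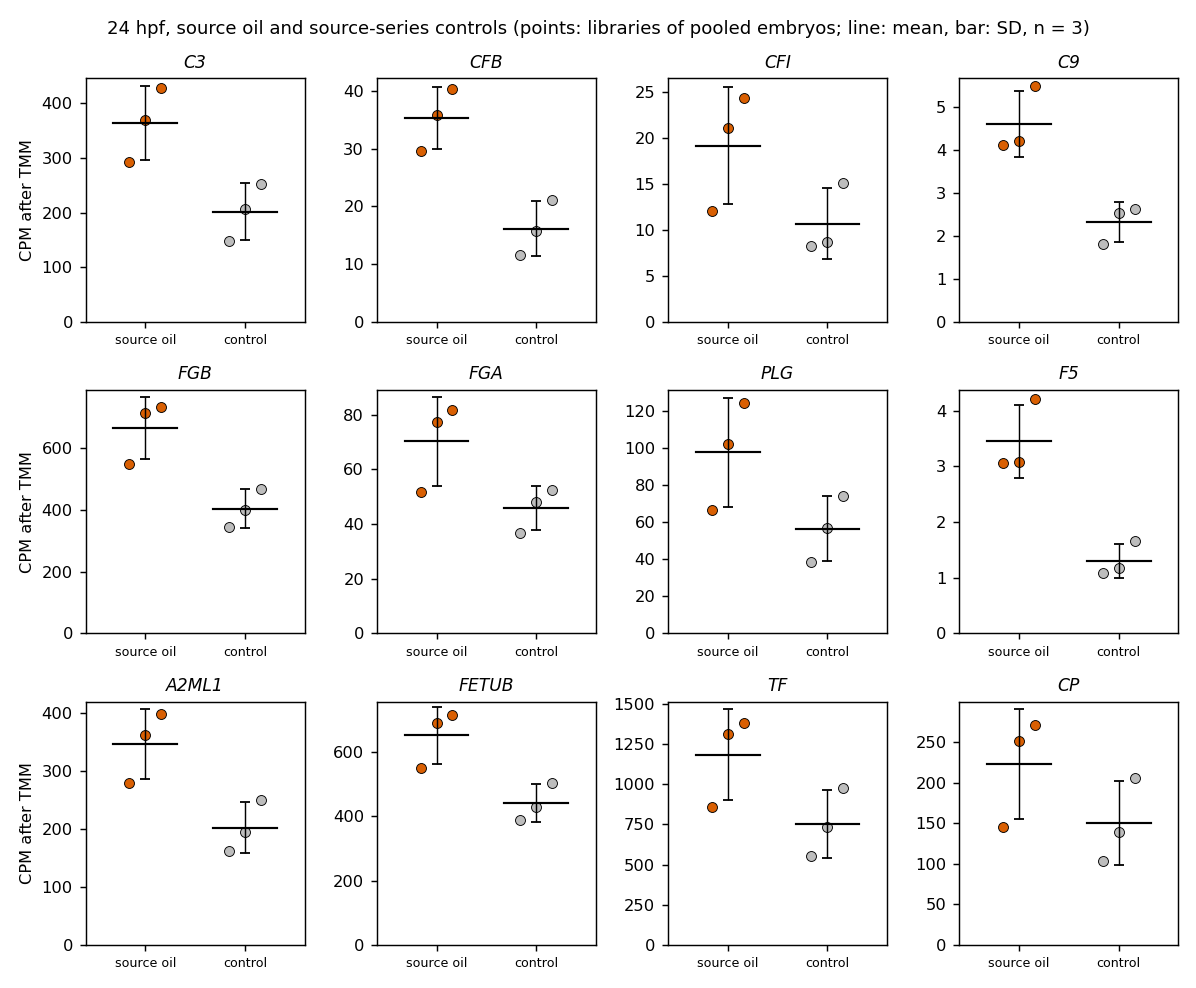
CPM after TMM scaling of 12 members at 24 hpf in source oil (left) and source-series controls (right); points are libraries, lines are means and bars are SD (n = 3 each). FGB, A2ML1 and FETUB show separate groups, with FGB at 549 to 734 CPM in oil and 344 to 469 CPM in controls, and CP shows overlapping groups.

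Single libraries bore on many of these calls. C3, CFB, FGB, A2ML1 and FETUB kept theirs whichever library was left out, and DESeq2 called the same 5 and no other member. The number of calls was 5 without source-oil replicate 2, 8 without source-oil replicate 3, 6 without control replicate 1 and 6 without control replicate 2. Calls over all genes fell too, from 531 with all libraries to 344, 440, 366 and 373 in the same order. In the same embryos GGCX, the carboxylase that vitamin K-dependent clotting factors need, had a log2 fold change of 1.00 (edgeR adjusted p = 1.27e-08), and STAT3, a mediator of the acute-phase response, had 0.81 (edgeR adjusted p = 9.7e-08). Across the wider lists, 2 of 14 other coagulation genes, 2 of 10 genes of acute-phase signalling, none of 18 liver transcription factors and 6 of 18 liver enzymes rose, and 1 liver enzyme fell. Of the yolk and gut lipoprotein markers APOB, MTTP and FABP2 had no call, APOA4 was under the filter, and the list summed to 168 to 233 CPM in source oil and 181 to 231 CPM in controls. Of 6 exocrine pancreas markers tested, only PRSS1, a trypsin gene, was called higher. Their list summed to 113 to 166 CPM in source oil and 74.6 to 99.5 CPM in controls. Their part in the members' rise was not tested.

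At 72 hpf the members went both ways in source oil. C3, CFB, CFI and C6 of complement rose, and F2, F10, PLG and HABP2 of clotting and fibrinolysis, antithrombin and the heme carrier hemopexin fell. Of 30 members tested, with 9 at 0 and 5 under the filter, 7 rose and 7 fell. Over all genes tested, 20.4% were called at this age, 11.4% higher and 9.03% lower, against 23.3% of the tested members in each direction. By role, 4 of 9 complement genes rose and none fell. Of these, CFB and CFI passed the filter only together with source oil, so a fall could hardly have been called for them. In coagulation, FGB rose and 4 of 9 fell. Of the 16 members that rose from 48 to 72 hpf in source-series controls, 7 fell in source oil, 4 rose and 5 had no call. Both comparisons use the same 72 hpf controls, and this overlap was not counted over all genes.

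C3 had 118, 107 and 65.5 CPM in source-oil larvae, against 41.1, 43.5 and 34.5 CPM in controls, so that every oil library lay above every control (log2 fold change 1.30 ± 0.16, SE; edgeR adjusted p = 5.22e-07). CFB had 9.77, 16.1 and 11 CPM in source oil, against 2.59, 5.44 and 6.41 CPM in controls (log2 fold change 1.37 ± 0.30, SE; edgeR adjusted p = 0.00167). C6, a pore subunit, had 73.3, 64.4 and 50.4 CPM in source oil, against 39.6, 19.8 and 23.5 CPM in controls (log2 fold change 1.19 ± 0.18, SE; edgeR adjusted p = 1.33e-05). Neither gene's groups overlapped. CFI rose by 1.17 ± 0.30 on the log2 scale (SE; edgeR adjusted p = 0.00537), a call that ended without source-oil replicate 2 (edgeR adjusted p = 0.0501). CFB and CFI had 7 to 18 and 8 to 17 counts per control library and passed the filter only together with source oil. Of the other pore subunits, C9, at 15.5, 11.2 and 10.6 CPM in source oil and 15.2, 16.7 and 16.7 CPM in controls, had no call, and neither had C7, C8A, C8B or C8G.

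Of the fibrinogen chains, FGB had 463, 518 and 358 CPM in source oil, against 321, 403 and 330 CPM in controls. This small rise (log2 fold change 0.36 ± 0.11, SE; edgeR adjusted p = 0.023) ended without source-oil replicate 1 or 2 or control replicate 1 or 3, with adjusted p-values of 0.0925 to 0.18. FGA and FGG had log2 fold changes of 0.01 and 0.17 and no call. Other genes of clotting and fibrinolysis fell. F2 had 81.8, 98.4 and 81.0 CPM in source oil, against 98.8, 163 and 132 CPM in controls (log2 fold change -0.57 ± 0.13, SE; edgeR adjusted p = 0.00262). HABP2, a plasma protease that activates factor VII in vitro and binds hyaluronan, had 35, 39.7 and 32.2 CPM in source oil, against 64.0, 94.8 and 70.1 CPM in controls. Its fall was the largest among the clotting genes called (log2 fold change -1.07 ± 0.14, SE; edgeR adjusted p = 1.78e-06), and its groups did not overlap. PLG fell by 0.55 on the log2 scale (edgeR adjusted p = 0.00261). Without control replicate 2, which held 284 CPM beside 175 and 192 CPM, its fold change was -0.31 (edgeR adjusted p = 0.0517). F10 fell by 0.68 on the log2 scale (edgeR adjusted p = 0.0216), but not without source-oil replicate 3 (-0.44) or control replicate 3 (-0.48).

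The inhibitors went both ways. SERPINC1 had 17.9, 20.2 and 21.6 CPM in source oil, against 23.7, 38.8 and 29.9 CPM in controls (log2 fold change -0.60 ± 0.18, SE; edgeR adjusted p = 0.0158). The call ended without source-oil replicate 1 or control replicate 2. FETUB had 107, 127 and 116 CPM in source oil, against 154, 235 and 189 CPM in controls (log2 fold change -0.70 ± 0.12, SE; edgeR adjusted p = 9.36e-05). A2ML1 rose to 112, 104 and 92.4 CPM in source oil, against 68.8, 94.0 and 48.4 CPM in controls (edgeR adjusted p = 0.00689), and its log2 fold change of 0.57 became 0.35 without control replicate 3 (edgeR adjusted p = 0.0713). Among carriers, CP rose by 0.66 ± 0.20 on the log2 scale (SE; edgeR adjusted p = 0.0202). Its libraries read 40.7, 35.5 and 21.6 CPM in source oil and 15.2, 22.1 and 25.3 CPM in controls, and the call ended without source-oil replicate 1 or 2 or control replicate 1. HPX fell to 41.1, 39.3 and 35.6 CPM in source oil, against 60.7, 117 and 75.8 CPM in controls (log2 fold change -1.10 ± 0.16, SE; edgeR adjusted p = 1.43e-05). AMBP had a log2 fold change of -0.01 and RBP4 of -0.23, neither called.

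**Figure D3:**
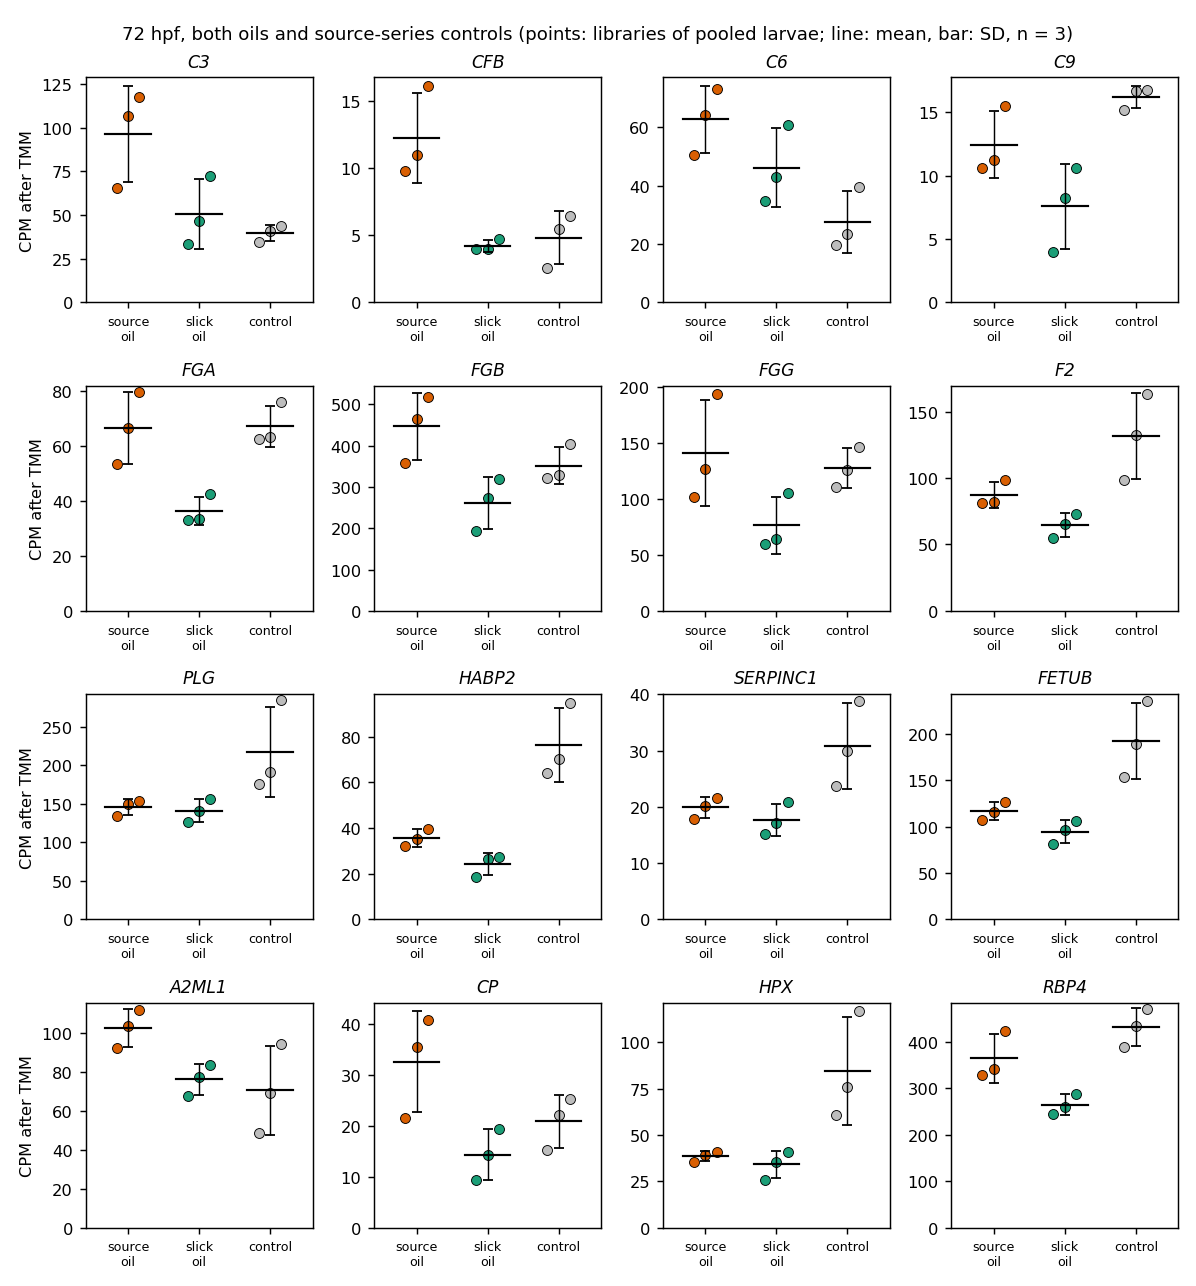
CPM after TMM scaling of 16 members at 72 hpf in source oil, slick oil and source-series controls (left to right in each panel); points are libraries, lines are means and bars are SD (n = 3 each). C3 and CFB stand highest in source oil, while HABP2, FETUB and HPX are lower in both oils, with HPX at 35.6 to 41.1 CPM in source oil, 26.0 to 40.8 CPM in slick oil and 60.7 to 117 CPM in controls.

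The wider lists moved in the same larvae. Of 10 genes of acute-phase signalling tested in source oil at 72 hpf, 7 rose and none fell. Of 15 other coagulation genes, 8 rose and 2 fell. PROS1, the cofactor of the anticoagulant protein C, was among those that rose, with a log2 fold change of 1.39 (edgeR adjusted p = 1.68e-09). CYBRD1, an iron reductase of the duodenum in mammals, had 3.42 (edgeR adjusted p = 4.75e-09). Liver enzymes went both ways, 6 higher and 8 lower of 20: TAT, which breaks down tyrosine, rose (log2 fold change 1.56) and G6PC, which releases glucose, fell (-1.21). That list summed to 6620 to 6821 CPM in source oil and 9960 to 12222 CPM in controls. Of 18 liver transcription factors 1 rose and 1 fell. Lipoprotein genes of the yolk syncytial layer and gut fell in 3 of 4 tested, and this list summed to 241 to 279 CPM in source oil and 340 to 539 CPM in controls. APOA1, APOA5, APOC1, APOC2 and APOE of that list are at 0. Macrophage and neutrophil markers rose in 2 of 7 and summed to 160 to 182 CPM in source oil and 101 to 135 CPM in controls, with CD68, CSF3R and MARCO at 0. Endothelium and thrombocyte markers rose in 2 of 6 and summed to 1278 to 1860 CPM in source oil and 803 to 1110 CPM in controls. Of 5 red blood cell markers 1 rose and 3 fell, and that list summed to 261 to 315 CPM in source oil and 228 to 264 CPM in controls. The part of these lists in the members' changes was not tested.

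Between 24 and 72 hpf source oil thus kept some directions and turned others. C3, CFB, CFI, FGB and A2ML1 were higher at both ages, whereas PLG and FETUB rose at 24 hpf and fell at 72 hpf. C3, CFB and FETUB kept their calls at both ages whichever library was left out. FGB and A2ML1 lost theirs at 72 hpf, and CFI and PLG at both ages, when some single libraries were left out. CFB and CFI passed the filter at 72 hpf only together with source oil, so a fall could hardly have been called. For FETUB the groups did not overlap at either age. The change of direction itself was not tested, because the 2 ages come from tables that assign counts to symbols in different ways.

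Few members were called in slick oil at the ages where it had controls of its own series. At 24 hpf none of the 22 members tested was called, where 2.19% of all genes tested were, 1.62% higher and 0.569% lower. At an unadjusted p under 0.05, 4 members and 1069 of 8959 genes passed, and DESeq2 also called no member. C3 had 217, 191 and 204 CPM in slick oil, against 215 and 256 CPM in controls, and FGB had 716, 696 and 680 CPM, against 670 and 775 CPM. CFB, at 16.9, 13.8 and 15.2 CPM in slick oil and 13.7 and 19.4 CPM in controls, overlapped as well. Without slick-oil replicate 3, 2 members were called lower, where 489 of 8827 genes tested were called, against 196 of 8959 with all libraries. GGCX was higher in these embryos too, with a log2 fold change of 0.55 (edgeR adjusted p = 0.000168).

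Without any call, most members leaned lower in slick oil at 24 hpf: 4 of 22 had a positive log2 fold change, and the median was -0.13 over the members and 0.0004 over all genes tested. The groups did not overlap for 5 members. How often this held over all genes was not counted, so nothing about the members is read from it. RBP4 was one of the 5, with 285, 262 and 311 CPM in slick oil, against 340 and 361 CPM in controls (log2 fold change -0.27; edgeR adjusted p = 0.0986). F2 had 134, 128 and 152 CPM in slick oil, against 148 and 174 CPM in controls, and PLG had 51.2, 41.7 and 62.5 CPM, against 54.7 and 61.0 CPM. FETUB had 315, 397 and 438 CPM in slick oil, against 371 and 431 CPM in controls, and SERPINC1 had 28.0, 20.9 and 24.2 CPM, against 25.9 and 26.9 CPM. All 4 overlapped between the groups. CP had 160, 119 and 184 CPM in slick oil, against 182 and 210 CPM in controls, and HPX had 24.8, 21.2 and 20.5 CPM, against 24.8 and 25.9 CPM. AMBP, precursor of the inhibitor bikunin, had 8.15, 8.75 and 13.1 CPM in slick oil, against 7.02 and 9.21 CPM in controls, and C9 was under the filter.

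At 48 hpf 2 of the 24 members tested fell in slick oil and none rose, where 2.66% of all genes were called, 1.91% higher and 0.748% lower. RBP4, the retinol carrier of plasma, had 263, 281 and 253 CPM in slick oil, against 398, 402 and 363 CPM in slick-series controls. The groups did not overlap, the log2 fold change was -0.53 ± 0.08 (SE; edgeR adjusted p = 0.000976), and the call held whichever library was left out. HABP2 had 18.3, 15.6 and 20.9 CPM in slick oil, against 28.7, 29.5 and 33.2 CPM in slick-series controls (log2 fold change -0.72 ± 0.15, SE; edgeR adjusted p = 0.0157). Its call ended without slick-oil replicate 2 or control replicate 2 or 3, with adjusted p-values of 0.0579 to 0.124.

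Slick-oil replicate 1 stood apart at 48 hpf. It had 127 CPM of FGB and 61.7 CPM of PLG, beside 252 and 264 CPM of FGB and 35.2 and 30.1 CPM of PLG in the other 2 libraries. Slick-series controls had 152, 118 and 92.2 CPM of FGB and 51.8, 58.0 and 66.4 CPM of PLG. Its exocrine pancreas genes summed to 3396 CPM, against 1156 and 769 CPM in replicates 2 and 3. With all libraries, FGB had a log2 fold change of 0.83 ± 0.21 and just missed the threshold (edgeR adjusted p = 0.0516). Without replicate 1, 8 members were called, 5 higher and 3 lower, among them FGB (log2 fold change 1.09), C3 (0.65) and CFB (1.12) as higher and PLG (-0.83) as lower. Calls rose over the whole table in that setting, to 940 of 9219 genes tested, against 242 of 9088 with all libraries. C3 had 44.3, 70.3 and 64.0 CPM in slick oil and 47.4, 43.6 and 37.9 CPM in controls. CFB had 4.79, 7.34 and 6.46 CPM in slick oil and 1.89, 4.46 and 3.28 CPM in controls.

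The remaining members of the set had no call at 48 hpf. F2 had 36.5, 46.8 and 44.6 CPM in slick oil, against 37.9, 54.2 and 46.3 CPM in slick-series controls, and FETUB had 71.0, 108 and 92.5 CPM, against 86.5, 65.6 and 71.5 CPM. CP had 8.98, 24.5 and 15.1 CPM in slick oil, against 12.3, 15.8 and 13.1 CPM in controls, and HPX had 33.2, 27.5 and 24.0 CPM, against 20.8, 35 and 27.3 CPM. All of these groups overlapped. AMBP had 5.39, 8.56 and 4.30 CPM in slick oil, against 2.84, 2.75 and 4.38 CPM in controls, SERPINC1 had 12, 10.4 and 8.30 CPM, against 7.89, 8.58 and 6.56 CPM, and C9 had 2.99, 5.20 and 1.23 CPM, against 5.05, 3.78 and 1.46 CPM.

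**Figure D4:**
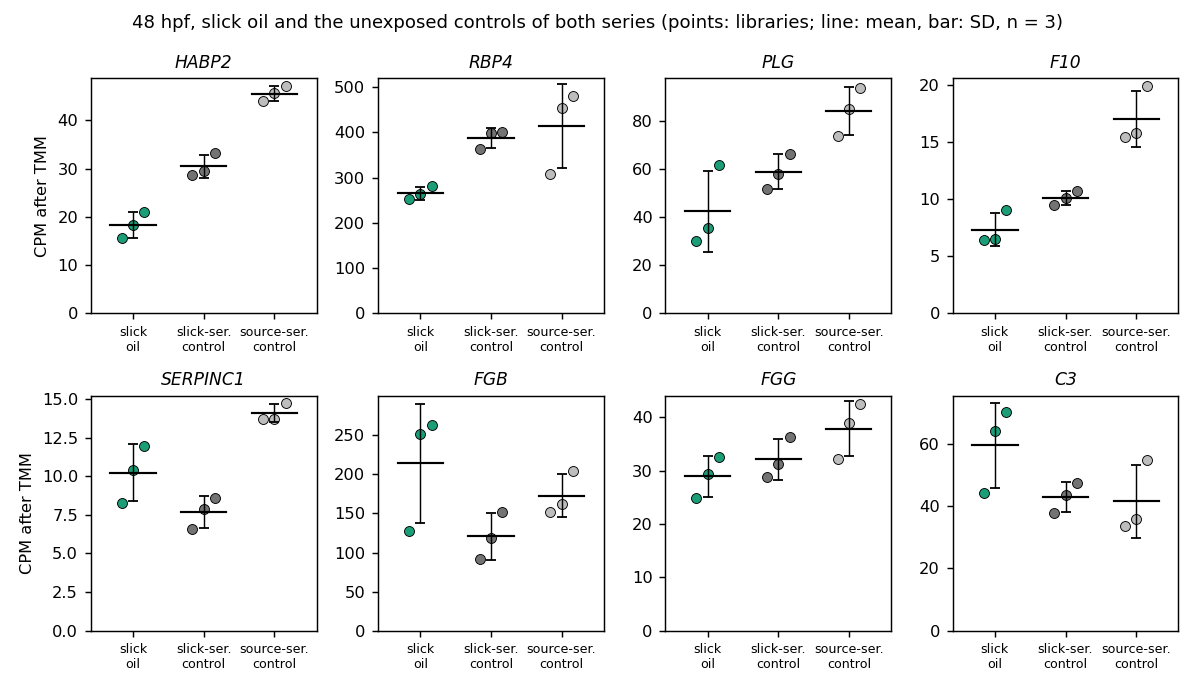
CPM after TMM scaling of 8 members at 48 hpf in slick oil, slick-series controls and source-series controls (left to right in each panel); points are libraries, lines are means and bars are SD (n = 3 each). HABP2 steps up from slick oil (15.6 to 20.9 CPM) over slick-series controls (28.7 to 33.2 CPM) to source-series controls (44.0 to 47.1 CPM), and F10, PLG and SERPINC1 also differ between the unexposed series.

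Unexposed larvae of the 2 series were not alike at 48 hpf. Of 23 members tested, 5 were lower in slick-series controls than in source-series controls and none was higher, where 4.45% of all genes were called, 2.04% higher and 2.41% lower. All 5 belong to clotting, to fibrinolysis or to the inhibition of clotting. HABP2 had 28.7, 29.5 and 33.2 CPM in slick-series controls, against 47.1, 44.0 and 45.6 CPM in source-series controls (log2 fold change -0.59 ± 0.13, SE; edgeR adjusted p = 0.0117). PLG had 51.8, 58.0 and 66.4 CPM in slick-series controls, against 93.9, 73.9 and 84.9 CPM in source-series controls (log2 fold change -0.53 ± 0.12, SE; edgeR adjusted p = 0.0142). SERPINC1 had 7.89, 8.58 and 6.56 CPM, against 13.7, 13.7 and 14.8 CPM (log2 fold change -0.88 ± 0.21, SE; edgeR adjusted p = 0.0216). F10 had 10.1, 10.6 and 9.48 CPM, against 15.4, 19.8 and 15.8 CPM (log2 fold change -0.77). None of these 4 overlapped. FGB, with a log2 fold change of -0.52 (edgeR adjusted p = 0.0353), did overlap. No complement gene was called, and C3 had 47.4, 43.6 and 37.9 CPM in slick-series controls and 33.7, 54.9 and 35.9 CPM in source-series controls.

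The calls, more than the fold changes, depended on single libraries. The count of members lower was 4 without slick-series control 1, 0 without slick-series control 2, 2 without slick-series control 3, 8 without source-series control 1, 2 without source-series control 2 and 0 without source-series control 3. Calls over all genes swung as well, at 308, 110, 115, 1206, 114 and 97 in the same order, against 405 with all libraries. Over these 6 settings the log2 fold change stayed between -0.66 and -0.55 for HABP2, between -0.64 and -0.44 for PLG, between -0.97 and -0.79 for SERPINC1 and between -0.83 and -0.64 for F10. For FGB it ranged from -0.73 to -0.37. DESeq2 called 2 of the 5 and gave no adjusted p for F10 and SERPINC1, and a fit over all groups called 2. Other liver genes were lower in slick-series controls as well: 7 of 20 liver enzymes fell and none rose, among them the gluconeogenic enzyme FBP1 (log2 fold change -0.81) and the bile acid enzyme CYP7A1 (-1.58). All 6 exocrine pancreas markers tested were lower, and the list summed to 1582 to 3085 CPM in slick-series controls and 4283 to 6895 CPM in source-series controls. AMY2A, CELA2A, CTRL and PNLIP of that list are at 0. Whether these marker genes and the members share a source was not tested.

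Set against the source-series controls instead, slick oil at 48 hpf had 6 members lower and none higher, where 7.17% of all genes were called, 2.46% higher and 4.71% lower. HABP2, RBP4, PLG (log2 fold change -1.0), F10 (-1.23), SERPIND1 (-1.60) and ITIH2 (-0.40) made up that list. SERPIND1 had 2, 3 and 6 counts in slick oil and passed the filter only through the controls. PLG and F10 had log2 fold changes of -0.45 each against the controls of their own series, without a call.

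At 72 hpf slick oil had to be set against source-series controls, so the series and the oil cannot be told apart there. Of 29 members tested, with 9 at 0 and 6 under the filter, 13 fell and 1 rose. Over all genes, 18.7% were called, 10.1% lower and 8.55% higher, against 44.8% and 3.45% of the members tested. The median log2 fold change was -0.44 over the members and 0.01 over all genes tested. Coagulation led the falls, with 7 of 9 genes lower, followed by 3 of 6 inhibitors, 2 of 5 carriers and 1 of 9 complement genes. Of the 16 members that rose from 48 to 72 hpf in source-series controls, 11 fell here, 1 rose and 4 had no call. All 7 coagulation genes are among the 11. Both comparisons use the same 72 hpf controls, and this overlap was not counted over all genes. Whether the falls go with the rise with age was not tested.

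HABP2 fell most among the called members, with 26.6, 27.4 and 18.6 CPM in slick oil, against 64.0, 94.8 and 70.1 CPM in controls (log2 fold change -1.63 ± 0.15, SE; edgeR adjusted p = 1.15e-09). F2 had 65.8, 54.8 and 72.6 CPM in slick oil, against 98.8, 163 and 132 CPM in controls (log2 fold change -1.01 ± 0.13, SE; edgeR adjusted p = 5.17e-07). All 3 fibrinogen chains fell. FGA had 33.4, 33.2 and 42.3 CPM in slick oil, against 63.3, 75.7 and 62.3 CPM in controls (log2 fold change -0.87 ± 0.12, SE; edgeR adjusted p = 3.59e-06). FGG fell by 0.72 on the log2 scale (edgeR adjusted p = 0.000207). FGB fell by 0.41 (edgeR adjusted p = 0.012), and its fold change was -0.23 without slick-oil replicate 2 and -0.31 without control replicate 2, neither called. PLG had 141, 126 and 156 CPM in slick oil, against 175, 284 and 192 CPM in controls (log2 fold change -0.60 ± 0.12, SE; edgeR adjusted p = 0.000348), and -0.37 without control replicate 2. F10, which fell by 0.59, was not called without slick-oil replicate 2 or 3 or control replicate 3, where its fold change lay between -0.51 and -0.39, and it was -0.92 without slick-oil replicate 1.

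Inhibitors and carriers followed. FETUB had 106, 81.1 and 96.6 CPM in slick oil, against 154, 235 and 189 CPM in controls (log2 fold change -1.01 ± 0.12, SE; edgeR adjusted p = 8.26e-08). ITIH2, a heavy chain of the inter-alpha-trypsin inhibitors, had 86.2, 71.8 and 93.0 CPM in slick oil, against 105, 128 and 136 CPM in controls (edgeR adjusted p = 0.000386). SERPINC1 had 20.8, 15.1 and 17.1 CPM in slick oil, against 23.7, 38.8 and 29.9 CPM in controls (log2 fold change -0.77 ± 0.18, SE; edgeR adjusted p = 0.00211). These groups did not overlap. HPX had 35.6, 26.0 and 40.8 CPM in slick oil, against 60.7, 117 and 75.8 CPM in controls (log2 fold change -1.28 ± 0.17, SE; edgeR adjusted p = 8.11e-07). RBP4 had 288, 244 and 259 CPM, against 389, 433 and 471 CPM (log2 fold change -0.69 ± 0.09, SE; edgeR adjusted p = 5.99e-07). RBP4 and HABP2 are the members that also fell in slick oil at 48 hpf against controls of the same series.

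Complement did not fall as a class. C9 fell to 8.27, 3.97 and 10.6 CPM in slick oil, against 15.2, 16.7 and 16.7 CPM in controls (log2 fold change -1.07 ± 0.25, SE; edgeR adjusted p = 0.00188). C6 rose to 43.1, 34.6 and 60.9 CPM, against 39.6, 19.8 and 23.5 CPM (edgeR adjusted p = 0.00448), and its log2 fold change of 0.75 was not called without slick-oil replicate 3 or control replicate 3. C3, at 46.7, 33.2 and 72.6 CPM in slick oil and 41.1, 43.5 and 34.5 CPM in controls, and CFB, at 3.95, 3.97 and 4.74 CPM in slick oil and 2.59, 5.44 and 6.41 CPM in controls, overlapped and had no call. CP had a log2 fold change of -0.52 and A2ML1 of 0.14, without a call.

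The unexposed difference at 48 hpf stands beside these values and shares no library with them. All 5 members lower in slick-series controls at 48 hpf are among the 13 lower in slick oil at 72 hpf, that is 5 of 5 of the shorter list and 5 of 13 of the longer. The same overlap over all genes was not counted, so it cannot be called particular to the members. Each of the 5 lost its call between the unexposed series without at least 1 library. HABP2 had a log2 fold change of -0.59 between the unexposed series and -1.63 in slick oil at 72 hpf, PLG had -0.53 and -0.60, SERPINC1 -0.88 and -0.77, F10 -0.77 and -0.59, and FGB -0.52 and -0.41. For SERPINC1, F10 and FGB the value in slick oil was nearer to 0 than that between unexposed larvae, for PLG it was a little farther and for HABP2 much farther; these differences were not tested. The other 8 members that fell had unexposed values between -0.37 for C9 and -0.04 for FETUB, none called, beside values of -0.54 to -1.28 in slick oil. All 6 exocrine pancreas markers tested were lower in slick oil at 72 hpf too, and the list summed to 23477 to 27954 CPM, against 36941 to 57376 CPM in controls. The yolk and gut lipoprotein list summed to 172 to 199 CPM in slick oil and 340 to 539 CPM in controls. The liver enzyme list, with 7 lower and 4 higher of 20, summed to 6303 to 6687 CPM in slick oil and 9960 to 12222 CPM in controls. Endothelium and thrombocyte markers went the other way and summed to 1209 to 1459 CPM in slick oil and 803 to 1110 CPM in controls, with 1 of 6 called higher. The part of these lists in the members' falls was not tested.

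Slick oil and source oil differed directly at 72 hpf. Of 29 members tested between the oils, 12 were lower in slick oil and none was higher, where 17.5% of all genes were called, 7.62% higher and 9.84% lower. CFB had 3.95, 3.97 and 4.74 CPM in slick oil, against 9.77, 16.1 and 11 CPM in source oil (log2 fold change -1.52 ± 0.28, SE; edgeR adjusted p = 0.000229). C3 had 46.7, 33.2 and 72.6 CPM in slick oil, against 118, 107 and 65.5 CPM in source oil (log2 fold change -0.91 ± 0.18, SE; edgeR adjusted p = 0.000569). CP had 19.4, 9.38 and 14.2 CPM in slick oil, against 40.7, 35.5 and 21.6 CPM in source oil (log2 fold change -1.16 ± 0.21, SE; edgeR adjusted p = 0.000251). CFB and CP did not overlap between the oils, and C3 did.

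The fibrinogen chains were lower in slick oil together. FGA had a log2 fold change of -0.85 (edgeR adjusted p = 5.37e-05), FGB of -0.76 (edgeR adjusted p = 6.64e-05) and FGG of -0.87 (edgeR adjusted p = 0.000419). RBP4 was lower by a log2 fold change of -0.45 and A2ML1 by -0.41. C3, CFB, CP, FGA, FGB, FGG and RBP4 kept their call whichever library was left out, and CFI, F2, HABP2, A2ML1 and ITIH2 lost it without at least 1. The value for FGG was -0.58 without source-oil replicate 2, and that for ITIH2 was -0.20 without slick-oil replicate 2. DESeq2 called 7 of the 12. PLG, SERPINC1, HPX, F10 and FETUB, called lower in each oil against the shared controls, had no call between the oils. Their log2 fold changes were -0.04 ± 0.10 for PLG, -0.15 ± 0.18 for SERPINC1, -0.16 ± 0.15 for HPX, 0.11 ± 0.23 for F10 and -0.29 ± 0.10 for FETUB (SE). FETUB had 106, 81.1 and 96.6 CPM in slick oil, against 107, 127 and 116 CPM in source oil, without overlap (edgeR adjusted p = 0.0533). A missed threshold does not show that the oils acted alike on them. In the wider lists, 7 of 10 acute-phase signalling genes were lower in slick oil, REL among them (log2 fold change -1.65), and none was higher. All 6 exocrine pancreas markers and 4 of 7 macrophage and neutrophil markers were lower too. The oils differ here in series, in percentage and in weathering at once, and these cannot be told apart.

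Without oil, most members fell from 24 to 48 hpf, and many rose from 48 to 72 hpf. From 24 to 48 hpf, in slick-series controls, 16 of 25 members tested fell and 2 rose, where 46.8% of all genes were called, 24% higher and 22.8% lower. Among those that fell, C6, CFI, CFB and AMBP had 2 to 13 counts per library at 48 hpf. They would not have passed the filter on that age alone. Nor would F10, which rose, on its 8 and 12 counts at 24 hpf. Such members could hardly have been called the other way. CP fell to 12.3, 15.8 and 13.1 CPM at 48 hpf, against 182 and 210 CPM at 24 hpf (log2 fold change -3.82 ± 0.13, SE; edgeR adjusted p = 2.54e-21). A2ML1 fell to 12, 10.6 and 9.12 CPM, against 116 and 134 CPM, and C3 to 47.4, 43.6 and 37.9 CPM, against 215 and 256 CPM. The fibrinogen chains fell together, by log2 fold changes of -2.47 for FGA, -2.55 for FGB and -2.28 for FGG. HABP2 fell by 2.62 on the log2 scale, FETUB by 2.41 and SERPINC1 by 1.76. All 5 inhibitors tested fell. C8B and F10 rose, while PLG, at 51.8, 58.0 and 66.4 CPM at 48 hpf and 54.7 and 61.0 CPM at 24 hpf, and HPX had no call. Lipoprotein genes of the yolk and gut list summed to 133 to 174 CPM at 48 hpf, against 518 to 548 CPM at 24 hpf.

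From 48 to 72 hpf, in source-series controls, 16 of 29 members tested rose and none fell, where 30.9% of all genes were called, 17.2% higher and 13.6% lower. C6 rose most among the members called, to 39.6, 19.8 and 23.5 CPM at 72 hpf, against 3.60, 2.44 and 1.34 CPM at 48 hpf (log2 fold change 3.46 ± 0.33, SE; edgeR adjusted p = 3.4e-08). At 48 hpf C6 had 11, 8 and 4 counts, CFI 1, 6 and 11 and C9 11, 22 and 9. These members passed the filter only together with 72 hpf, so a fall could hardly have been called for them. A2ML1 rose to 68.8, 94.0 and 48.4 CPM, against 12.8, 12.2 and 6.04 CPM. The log2 fold changes were 1.75 for FGA, 1.01 for FGB, 1.74 for FGG, 1.36 for PLG, 1.36 for F2, 1.33 for FETUB and 1.26 for HPX. C3, CFB and CP stayed without a call: C3 had 41.1, 43.5 and 34.5 CPM at 72 hpf and 33.7, 54.9 and 35.9 CPM at 48 hpf. Liver enzymes rose in 15 of 20, with G6PC at a log2 fold change of 3.09, and exocrine pancreas markers in 6 of 6.

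**Figure D5:**
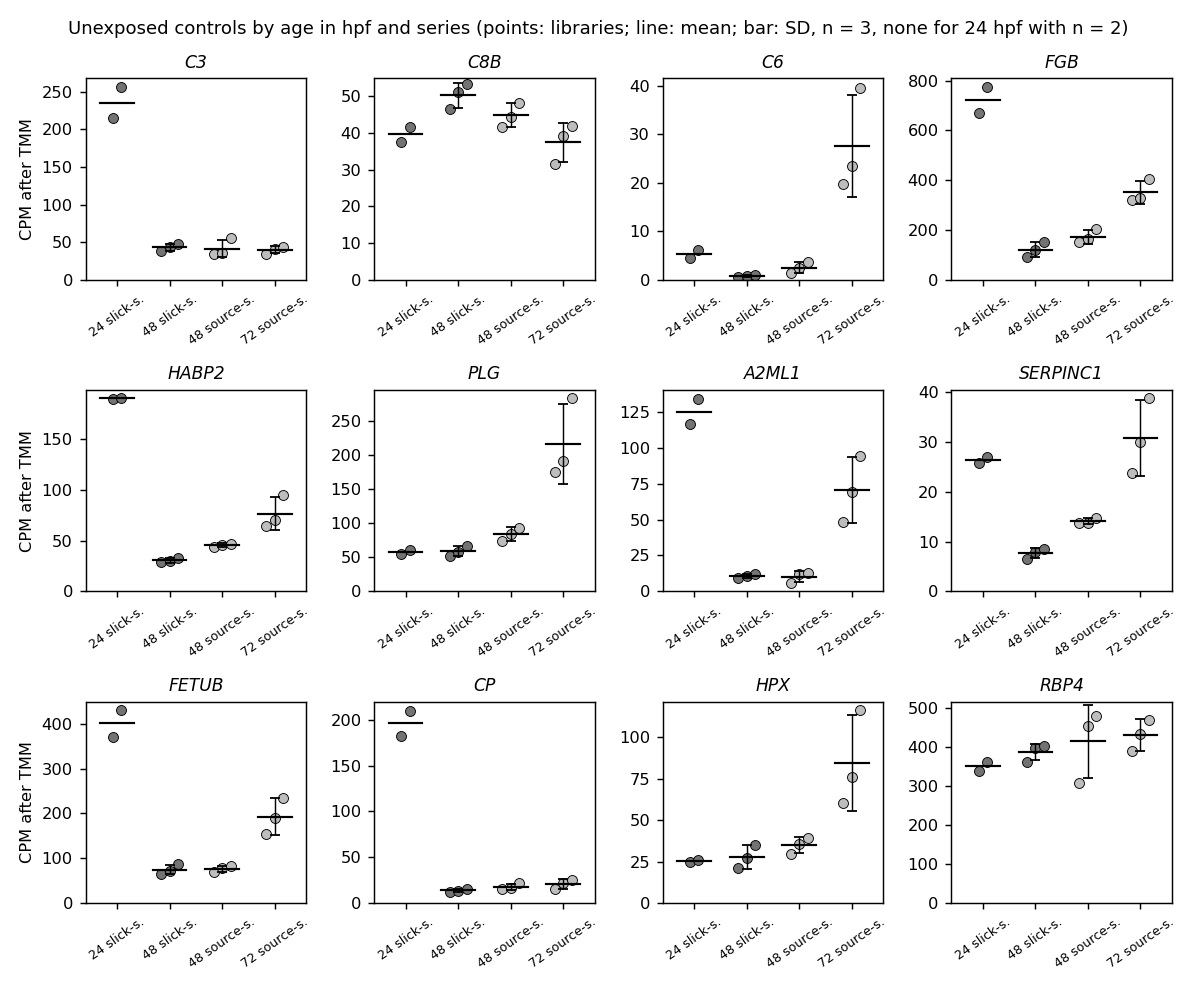
CPM after TMM scaling of 12 members in unexposed controls at 24 and 48 hpf (slick series) and at 48 and 72 hpf (source series); points are libraries, lines are means and bars are SD (n = 3, none at 24 hpf, where n = 2). C3, CP and HABP2 are highest at 24 hpf, with CP at 182 and 210 CPM there and 12.3 to 15.8 CPM at 48 hpf, while C6, PLG and HPX are highest at 72 hpf.

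Of the 16 that fell from 24 to 48 hpf in slick-series controls, 11 rose from 48 to 72 hpf in source-series controls. These were C6, CFI, F2, the 3 fibrinogen chains, HABP2, SERPINC1, A2ML1, FETUB and VTN. Of them, C6 and CFI would not have passed the filter on their 48 hpf libraries alone in either step. The other 5 (C3, CFB, AMBP, ITIH2 and CP) had no call from 48 to 72 hpf. FGB, HABP2 and SERPINC1 already differed between the series at 48 hpf. Whether the turn differs between members was not tested, and how many of all genes fell and then rose was not counted.

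All members together took a small share of each library. It was 0.369% to 0.513% of counts in source oil and 0.266% to 0.377% in controls at 24 hpf. At 72 hpf it was 0.160% to 0.208% in source oil, 0.128% to 0.165% in slick oil and 0.175% to 0.211% in controls. The 24 hpf shares include TF, which is listed at 0 at 72 hpf, so the ages are not compared. Complement took 0.0169% to 0.0248% in source oil at 72 hpf, 0.0138% to 0.0208% in slick oil and 0.0117% to 0.0149% in controls, so that both oils overlapped with each other and source oil alone lay above the controls. Coagulation took 0.0723% to 0.101% in source oil, 0.0544% to 0.0766% in slick oil and 0.0795% to 0.102% in controls.

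The slick-oil effect was also compared between 48 and 24 hpf directly. No member of 27 and no gene of 9495 was called by edgeR, where 6 members and 1077 genes had an unadjusted p under 0.05. DESeq2 also called none, of 34 members and 11199 genes. C3 had a difference of 0.69 ± 0.19 and FGB of 0.89 ± 0.25 (log2, SE), higher at 48 hpf, with adjusted p-values of 0.254 and 0.262 in edgeR. Without slick-oil replicate 1 at 48 hpf, both were called, where 190 of 9446 genes tested were called.

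The authors' deposited table for source oil at 24 hpf lists 10 members past an adjusted p of 0.05, all higher, among 350 genes. The authors' deposited table for 72 hpf lists 5 higher and 5 lower, among 1189 genes past that threshold. For slick oil, the authors' deposited tables list none at 24 hpf, 2 lower at 48 hpf and 9 lower at 72 hpf, among 51, 208 and 968 genes. The authors' fits did not all use the libraries used here, so their counts are not like for like. Their 24 hpf slick-oil fit had 1 control column that names a 48 hpf library. Their 24 hpf source-oil fit had a control column that matches no single sample. Their slick-oil controls at 72 hpf were of the source series. At 48 hpf, the authors' deposited table named for source oil holds slick-series controls in its oil columns. Among 303 genes past the threshold it lists 1 member, PLG, as lower (log2 fold change -0.44 in the authors' deposited table). The authors' deposited log2 fold change of HABP2 was -1.0 in source oil and -1.47 in slick oil at 72 hpf.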

How the data were processed

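RNA was sequenced from pools of whole embryos or larvae with TruSeq libraries, per the labels' protocols. The deposited tables give raw read counts per human gene symbol, and per the submitters' processing notes the authors used HTSeq and DESeq2 and the build hg19; how fish reads were assigned to human symbols is not given in the sources used here. The authors' deposited log2 fold changes and p-values were used only where they are named.

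Of 37 library columns in 6 tables, 1 that matches no single sample and 1 that names a library of another age were not used, and 6 stand in a second table with identical counts and were taken once, which leaves 29 libraries. Where rows repeated a symbol, only the row with the highest mean count was kept, giving 56338 symbols. Each comparison was fitted on the whole table in R 4.3.3 with the package edgeR 4.0.16 (filterByExpr with a minimum count of 10, TMM scaling, quasi-likelihood F test, Benjamini-Hochberg adjustment over all genes tested, call at 0.05), using only the groups compared. The SE of a log2 fold change was taken as its size over the square root of F. CPM values are after TMM scaling, the 24 hpf source-oil table on its own and the other libraries jointly. No gene lengths were used, so levels are not compared between genes. The procedure was tested on simulated data. Alternatives were DESeq2 1.42.0, its size factors in edgeR, no filter, each library left out, a replicate block, a fit over all groups and other controls.

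The members, the other gene lists and the tests were chosen with earlier results of these data known. The genes given library by library are those with the smallest adjusted p per role and comparison (up to 3) and a fixed set (C3, CFB, C9, F2, FGB, PLG, SERPINC1, AMBP, FETUB, TF, CP, HPX, TTR and HAMP), and other genes are the 4 with the smallest adjusted p per comparison in the wider lists.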

Additional observations from a re-analysis of the deposited data

Results flagged for a closer look

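At 72 hpf the levels in slick oil and source oil differed by a direct edgeR test for 12 members, all lower in slick oil. Over all genes tested, 17.5% were called, 7.62% higher and 9.84% lower. DESeq2 called 7 of the 12, and CFI, F2, HABP2, A2ML1 and ITIH2 lost their call without at least 1 library. The log2 fold changes of slick oil over source oil were -0.91 for C3, -1.52 for CFB, -1.04 for CFI, -0.42 for F2, -0.85 for FGA, -0.76 for FGB, -0.87 for FGG, -0.54 for HABP2, -0.41 for A2ML1, -0.31 for ITIH2, -1.16 for CP and -0.45 for RBP4. The oils were given at different percentages and to different series, which cannot be told apart from the kind of oil.

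FETUB moved in opposite directions in source oil at 24 and 72 hpf, with log2 fold changes of 0.57 and -0.70 and no overlap between groups at either age. A2ML1 lay higher than every control in source oil at 24 hpf (log2 fold change 0.78) and lower than every control in slick oil at 24 hpf (-0.23, not called). In slick oil that separation rests on 116.35 CPM in the highest oil library, against 116.46 CPM in the lowest control. These differences between groups were not tested, since the tables assign counts to symbols in different ways.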

How the results depend on the processing

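The members called were counted again under each alternative. With DESeq2 the count was 5 in source oil at 24 hpf (13 in edgeR), 9 in slick oil at 72 hpf (14), 2 between the unexposed series at 48 hpf (5) and 7 between slick oil and source oil at 72 hpf (12). Calls over all genes fell with DESeq2 too, to 350 (531 in edgeR), 958 (1673), 301 (405) and 933 (1561) in the same order. One fit over all groups gave 2 between the unexposed series, where 504 of all genes were called. With source-series controls in place of its own, slick oil at 48 hpf had 6 members called, and AMBP turned to a log2 fold change of -0.14 (0.89 with its own controls, neither called). Leaving out each library in turn gave 5 to 15 calls in source oil at 24 hpf, 0 to 2 in slick oil at 24 hpf, 1 to 8 in slick oil at 48 hpf, 0 to 8 between the unexposed series and 0 to 2 for the change of the slick-oil effect with age. Calls over all genes moved as well, at 344 to 571, 63 to 489, 102 to 940, 97 to 1206 and 0 to 190 in the same order. Over single members, 1137 values kept their direction and side of the threshold, 133 lost a call, 36 gained one and 1 reversed; the cause was not tested.

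At 24 hpf a replicate block gave 16 calls in source oil and 1, lower, in slick oil. In source oil the block gave 850 calls over all genes, against 531 without it, and in slick oil 198, against 196. Deviations of same-numbered source-series libraries correlated at 0.136, 0.0164 and 0.123, and those of differently numbered libraries at -0.212 to 0.0883. The main test took no pairs, and these values do not settle whether the numbers mark pairs. No block could be fitted at 48 and 72 hpf, where the column numbers do not link to the labels. C7, C8B, C9 and F5 at 24 hpf rested on at most 42 counts per library, which limits what their values can show.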
